A study of Mus musculus with 8 samples.

Results

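Expression of 8 transcription factors of the duct lineage was followed through the 8 libraries of the study: Sox9, Onecut1, Onecut2, Foxa1, Foxa2, Hnf4a, Gata4 and Gata6. They were taken by gene symbol from a table of 31228 genes, and all 8 were found. The libraries came from C57BL/6 mice. They were 1 bile duct epithelium (extrahepatic), 1 pancreatic duct epithelium, 3 bile duct organoids and 3 pancreatic duct organoids. The labels name no engineered allele. Epithelia were minced and collagenase-treated ducts that went into Trizol without culture, so they still hold the other cells of the dissected tissue. Organoids are gel-embedded epithelial cultures, here kept for 3 to 4 passages in medium with EGF, R-Spondin-1, Noggin, FGF10 and nicotinamide. Wnt3A-conditioned medium and Y27632, a ROCK inhibitor, were also in the medium at first and were withdrawn once hollow organoids had formed. The labels do not say whether organoid replicates came from separate animals, so p-values measure the spread between these cultures, which may be technical.

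These proteins bind DNA and set up the foregut organs. FOXA1 and FOXA2 are forkhead pioneer factors that open chromatin in early endoderm, and GATA4 and GATA6 are zinc finger factors that act beside them in liver, pancreas and gut. ONECUT1 (also called HNF6) and ONECUT2 are cut-homeodomain factors that steer liver and pancreas precursors toward bile ducts and pancreatic ducts. SOX9 marks duct cells and their progenitors in both organs. HNF4A is a nuclear receptor that drives hepatocyte and gut epithelial genes and is also made in pancreas.

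Values are FPKM, reads scaled to exon length and to library size, so levels of different genes can be compared. Values of 3 organoids are given in the order of replicates 1, 2 and 3. The values imply 12876443 to 20828041 reads per library. At the shallowest of them, a single read adds 0.0777 FPKM to a gene whose exons span 1 kb. The pancreatic and bile duct epithelia contained other cell types. The 15 acinar markers summed to 23483 FPKM in the bile duct epithelium and 48748 FPKM in the pancreatic one, but to between 2.70 and 9.41 FPKM in the organoids. The 10 fibroblast markers summed to 1718 and 1768 FPKM in the epithelia and to at most 3.12 FPKM in an organoid, where each stayed under 1 FPKM. Duct markers were found in every library, with Krt19 at 432 FPKM in the bile duct tissue, 83.8 FPKM in the pancreatic duct tissue and 699 to 2097 FPKM in cultures. In such bulk RNA, fewer cells of a type and less RNA per cell cannot be told apart.

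Across the 6 organoids, Hnf4a had the highest mean level of the 8 factors, followed by Sox9, Onecut2, Foxa2, Gata6, Foxa1, Onecut1 and Gata4. The mean was 82.5 FPKM for Hnf4a, 59.1 for Sox9, 39.4 for Onecut2, 31.6 for Foxa2 and 21.5 for Gata6. Foxa1, Onecut1 and Gata4 were far lower, at means of 2.25, 1.94 and 1.63 FPKM. Only the steps from Foxa2 to Gata6 and from Gata6 to Foxa1 separated neighbours whose ranges did not overlap. Hnf4a exceeded Sox9 in 5 of 6 organoids, and Onecut2 exceeded Foxa2 in 3 of 6. In the pancreatic duct epithelium the order was another one, with Gata6 at the top, above Sox9, Onecut2 and Hnf4a. Foxa2 was the most even factor among organoids, with a coefficient of variation of 8.02%, and Gata4 the most uneven, at 136%.

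**Figure D1:**
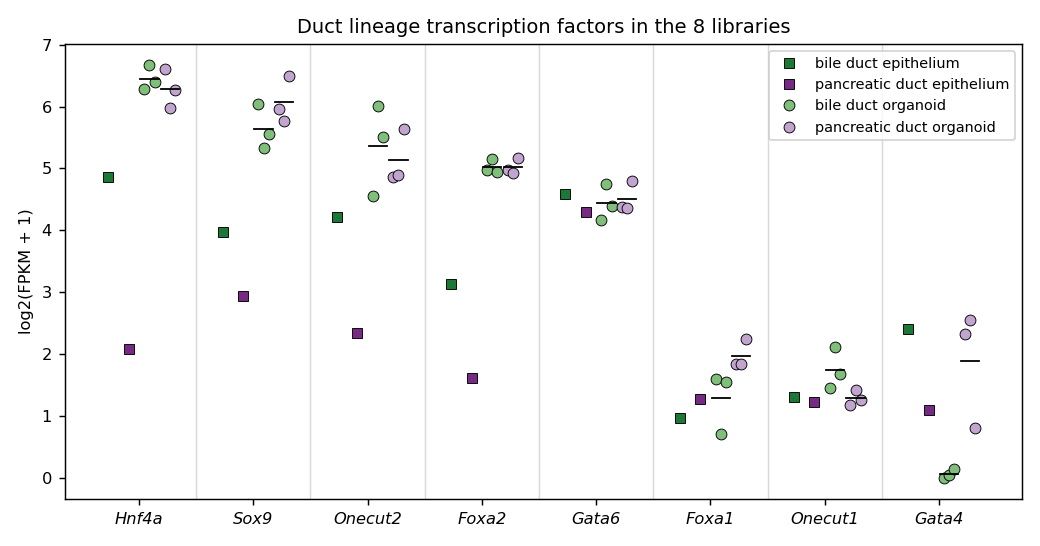
Level of each factor in each library on a log2(FPKM + 1) scale, ordered by mean level in organoids. Squares are the single epithelium libraries, circles are organoids and black bars are the means of the 3 organoids of an organ. Organoids lie above both epithelia for Hnf4a, Sox9, Onecut2 and Foxa2. For Gata4, pancreatic duct organoids 1 and 2 stand apart at 4.01 and 4.88 FPKM. Pancreatic duct organoid 3 is at 0.75 FPKM and bile duct organoids are at most 0.111 FPKM.

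The first question was whether the factors differ between organoid and epithelium. Hnf4a, Sox9, Foxa2 and Onecut2 were higher in organoids, and Foxa1, Onecut1, Gata4 and Gata6 did not pass the test. One limma fit over all 8 libraries, with a term for organ and a term for culture, tested the change that both organs share. It called 4 of the 8 factors, all 4 higher in organoids, at an adjusted p under 0.05. None of these 4 passed when levels were taken per unit of 6 epithelial genes, and Sox9 and Onecut2 then turned sign, with values given further on. Among 14919 genes tested, the same fit called 59.2%, 32.7% as higher and 26.6% as lower, so a call by itself sets these factors little apart. Each epithelium is 1 library, so the fit assumes that the epithelia vary as organoids do. All 6 organoids lay above both epithelia for these 4 factors, which was also true of 39.9% of all genes tested.

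Hnf4a (ENSMUSG00000017950, chromosome 2, 163506808 to 163572910, plus strand) had the widest change in the fit over both organs, though not in bile duct alone. Its level was 28.1 FPKM in the bile duct epithelium and 3.27 FPKM in the pancreatic one. The bile cultures had 76.5, 101 and 83.1 FPKM, and the pancreatic cultures 96.9, 61.7 and 75.6 FPKM. The lowest organoid was thus above the higher epithelium, and the organoid groups overlapped. The log2 difference between organoid and epithelium was 2.77 (SE 0.52, limma adjusted p = 0.00325). Without the pancreatic duct epithelium it was 1.46 (limma adjusted p = 0.00992), below the 1.77 of Foxa2. Mean organoid FPKM was 3.09 times the epithelial value in bile duct and 23.9 times in pancreatic duct. The antisense gene Hnf4aos lies within the same span, shares 0 exon bases with Hnf4a and had at most 0.285 FPKM in any library.

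Hnf4a is known for a distal promoter used in pancreas and early tissues and a proximal one used in adult liver. The deposited values are per gene and do not separate them. The window before the distal start is shown because Hnf4a had the widest shared change and because the window holds motifs of other factors of the list. The RefSeq promoter table (GRCm38.p6) held 4 of the 8 factors, namely Hnf4a, Foxa2, Foxa1 and Onecut1. Each window printed runs 5′ to 3′ on the gene's strand, from 250 to 46 bases before a transcript start. Capitals mark matches on either strand to short motifs. The forkhead motif was searched as TGTTTAC, and the motif of ONECUT factors was ATTGAT. For GATA factors the letters were AGATAA. Part of an HNF4 site, AAAGTCC, and a SOX motif, ACAATG, completed the search and matched none of the windows shown.
Hnf4a distal start (chr2:163506607-163506811, plus strand): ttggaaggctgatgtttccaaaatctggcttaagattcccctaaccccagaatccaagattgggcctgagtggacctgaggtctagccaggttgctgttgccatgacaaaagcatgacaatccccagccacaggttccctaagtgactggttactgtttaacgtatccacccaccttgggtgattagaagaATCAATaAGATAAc
The distal window holds an ONECUT match 59 to 54 bases and a GATA match 52 to 47 bases before the start. Of 32515 such windows in the table, 5.76% hold the ONECUT letters and 8.58% the GATA letters. These matches describe letters in the window and not binding.

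Sox9 (ENSMUSG00000000567, chromosome 11, 112782224 to 112787760, plus strand) had 14.7 FPKM in the bile duct epithelium and 6.67 FPKM in the pancreatic one. The 3 bile cultures had 65.1, 39.2 and 46.1 FPKM, and the 3 pancreatic cultures 61.1, 53.6 and 89.4 FPKM. Every organoid was above both epithelia, and pancreatic duct organoid 3 was the highest library. The log2 difference between organoid and epithelium was 2.28 (SE 0.37, limma adjusted p = 0.00153). Mean organoid FPKM was 3.42 times the epithelial value in bile duct and 10.2 times in pancreatic duct.

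The ONECUT pair was unequal in every library, with Onecut2 above Onecut1. Onecut2 (ENSMUSG00000045991, chromosome 18, 64340364 to 64398488, plus strand) had 17.6 FPKM in the bile duct epithelium and 4.07 FPKM in the pancreatic one. Its values were 22.6, 63.4 and 44.7 FPKM in the bile cultures, and 28.0, 28.7 and 48.8 FPKM in the pancreatic cultures. Bile duct organoids 2 and 3 and pancreatic duct organoid 3 were thus the high ones, across the organs. The same 3 cultures had the most Mki67, a gene of dividing cells, at 66.8, 65.9 and 56.8 FPKM, against 18.5 to 31.2 FPKM in the other 3. The part of proliferation in Onecut2 was not tested. The log2 difference of Onecut2 between organoid and epithelium was 1.85 (SE 0.47, limma adjusted p = 0.0118). Without the pancreatic duct epithelium it was 1.03 and did not pass (limma adjusted p = 0.177).

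Onecut1 (ENSMUSG00000043013, chromosome 9, 74861921 to 74891781, plus strand) stayed low, at 1.49 FPKM in the bile duct epithelium and 1.34 FPKM in the pancreatic one. Among cultures it had 1.73, 3.35 and 2.22 FPKM in those from bile duct, and those from pancreatic duct had 1.28, 1.67 and 1.39 FPKM. Its log2 difference between organoid and epithelium was 0.17 (SE 0.19, limma adjusted p = 0.467). Onecut1 shares 2171 exon bases with the non-coding gene Gm20649, so its level is uncertain where counting could split or drop shared reads. Of the FPKM of the pair, Onecut1 held 7.83% in the bile duct tissue and 24.7% in the pancreatic duct tissue. In organoids its share was 2.77% to 7.12%, and pancreatic duct epithelium stood apart from the other 7 libraries.

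The FOXA pair showed the same kind of imbalance, with Foxa2 the abundant partner. Foxa2 (ENSMUSG00000037025, chromosome 2, 148042877 to 148046969, minus strand) had 7.80 FPKM in the bile duct epithelium and 2.07 FPKM in the pancreatic one. Cultures from bile duct had 30.4, 34.6 and 29.9 FPKM, and those from pancreatic duct had 30.5, 29.3 and 35.2 FPKM. The 6 organoids were within 1.20-fold of each other and all above both epithelia. Its log2 difference between organoid and epithelium was 2.54 (SE 0.30, limma adjusted p = 0.000355). Mean organoid FPKM was 4.06 times the epithelial value in bile duct and 15.3 times in pancreatic duct.

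Foxa1 (ENSMUSG00000035451, chromosome 12, 57540628 to 57546916, minus strand) had 0.957 FPKM in the bile duct epithelium and 1.42 FPKM in the pancreatic one, from 41 and 73 reads. The bile cultures had 2.04, 0.632 and 1.94 FPKM, while the pancreatic cultures had 2.59, 2.58 and 3.72 FPKM. Bile duct organoid 2, with 42 reads, was the lowest library of all. The log2 difference between organoid and epithelium was 0.43 (SE 0.27, limma adjusted p = 0.196), and 0.58 without bile duct organoid 2 (limma adjusted p = 0.0168). Foxa1 held 10.9% of the FPKM of the pair in the bile duct tissue, 40.6% in the pancreatic duct tissue and 1.79% to 9.57% in cultures. A window before a RefSeq start is shown for each partner, since Foxa2 was called and Foxa1 was not. The Foxa1 window lies within the gene span given above and the Foxa2 window outside its span, so they are not alike in position. Their letters describe no binding, and their part in the calls was not tested.
Foxa2 (chr2:148047015-148047219, minus strand): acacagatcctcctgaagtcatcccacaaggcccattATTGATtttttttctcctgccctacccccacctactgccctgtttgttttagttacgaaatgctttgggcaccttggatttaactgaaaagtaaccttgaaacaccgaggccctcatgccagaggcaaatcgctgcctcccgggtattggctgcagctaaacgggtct
Foxa1 (chr12:57546157-57546361, minus strand): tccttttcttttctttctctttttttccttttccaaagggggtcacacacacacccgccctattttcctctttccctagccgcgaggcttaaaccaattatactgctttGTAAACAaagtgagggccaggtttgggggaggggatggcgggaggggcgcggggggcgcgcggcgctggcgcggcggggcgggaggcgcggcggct
The Foxa2 window, at the most upstream of its 3 RefSeq starts, holds an ONECUT match 213 to 208 bases before the start. Of the windows not shown, 1 holds a GATA match 183 to 178 bases before its start and the other none of the motifs named. The Foxa1 window holds a forkhead match 141 to 135 bases before the start, letters found in 2.65% of all windows.

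**Figure D2:**
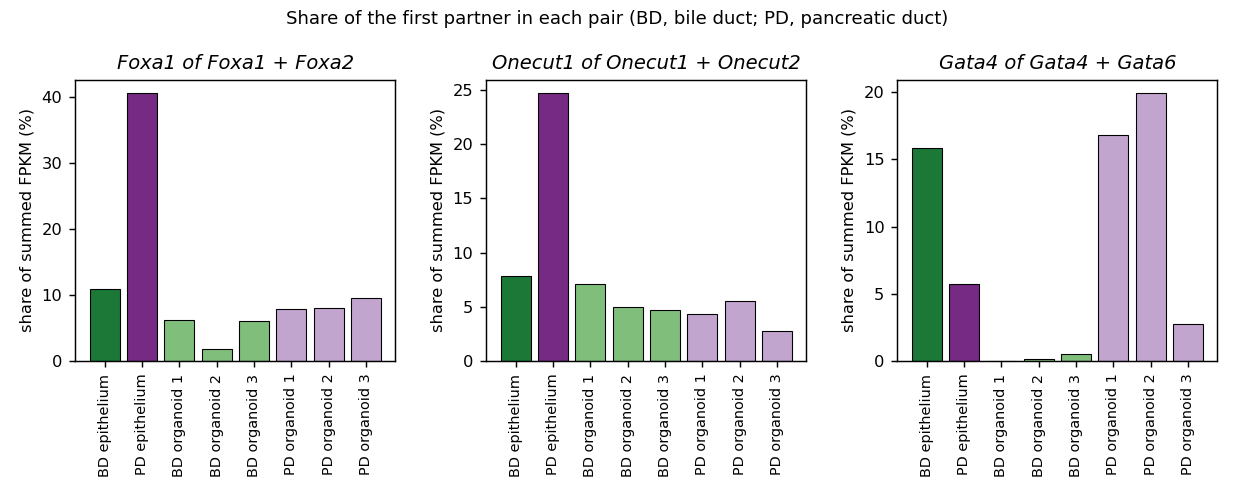
Share of the first-named partner in the summed FPKM of a pair, in percent, for each library. Pancreatic duct epithelium has the largest Foxa1 share (40.6%) and Onecut1 share (24.7%), and pancreatic duct organoids 1 and 2 have the largest Gata4 shares among organoids (16.8% and 19.9%).

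The GATA factors had no shared direction. Gata6 (ENSMUSG00000005836, chromosome 18, 11052510 to 11085635, plus strand) was nearly level in all libraries. It had 22.9 FPKM in the bile duct epithelium and 18.8 FPKM in the pancreatic one. Cultures of bile duct origin had 17.0, 25.8 and 20.1 FPKM, and those of pancreatic origin had 19.8, 19.6 and 26.8 FPKM. Organoids and epithelia overlapped. Its log2 difference between organoid and epithelium was -0.09 (SE 0.17, limma adjusted p = 0.660), and with FPKM as deposited it was 0.03. An antisense transcript, 1010001N08Rik, shares 93 exon bases with Gata6 and had at most 2.87 FPKM.

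Gata4 (ENSMUSG00000021944, chromosome 14, 63198922 to 63271692, minus strand) was the factor whose organoids parted most by organ. It had 4.32 FPKM in the bile duct epithelium and 1.14 FPKM in the pancreatic one, from 217 and 69 reads. The bile cultures had 0, 3 and 8 reads, or 0, 0.0384 and 0.111 FPKM. The pancreatic cultures had 241, 335 and 61 reads, or 4.01, 4.88 and 0.75 FPKM. Each pancreatic duct organoid was above each bile duct organoid, and pancreatic duct organoid 3 was well below the other 2 of its group. The count of 0 in bile duct organoid 1 allows up to 0.0431 FPKM, the value of 3 reads there. Summed over a group and set against depth, Gata4 reads were 60.5 times as frequent in pancreatic duct organoids (95% exact binomial interval 33.6 to 122, counting error only). Bile duct organoid 3 held 8 of the 11 bile duct reads, and without it the ratio was 149 (50.8 to 725). Leaving out any other organoid, a check added after the values were seen, gave 41.3 to 89.2.

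The separation of Gata4 between the organoid groups did not pass the test across genes. Gata4 had at least 1 FPKM in 2 organoids, under the 3 needed, and was therefore left out of the filtered fit. Without the filter its log2 difference, bile duct minus pancreatic duct organoids, was -1.84 (SE 0.49), with an unadjusted p of 0.0102 and an adjusted p = 0.986 in limma. With 0.1 in place of 1 FPKM added it was -4.20 (limma adjusted p = 0.984), and the size thus depends on the value added. An unadjusted p under 0.05 was reached by 2.58% of the 26795 genes in that fit. Without pancreatic duct organoid 3, the difference was -2.39 (limma adjusted p = 0.0891). Between organoid and epithelium, the shared log2 difference of Gata4 was -0.85 (SE 0.74, limma adjusted p = 0.353), or -2.06 with 0.1 FPKM added (limma adjusted p = 0.220). Without the pancreatic duct epithelium it was -2.43 and passed (limma adjusted p = 0.0351), and without the bile duct epithelium it was 0.71 (limma adjusted p = 0.442). Between organoid groups, the exact two-sided permutation test of Gata4 gave p = 0.1, the smallest that 3 against 3 cultures allow.

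Gata5, a paralog of Gata4 expressed in gut endoderm and heart, ran opposite to Gata4 among organoids. Gata5 (ENSMUSG00000015627, chromosome 2, 180325133 to 180334699) had 9.34, 9.22 and 17.8 FPKM in the bile cultures. It had 1.41, 1.72 and 13.6 FPKM in the pancreatic cultures. The cultures with the most Gata4, pancreatic duct organoids 1 and 2, were those with the least Gata5, and pancreatic duct organoid 3 sided with the bile duct organoids. Gata4 made up 74.0% of the FPKM of Gata4 and Gata5 in pancreatic duct organoid 1 and also 74.0% in pancreatic duct organoid 2. Its share was 5.23% in pancreatic duct organoid 3 and 0% to 0.621% in bile duct organoids. In the epithelia both genes were present, with Gata5 at 12.0 FPKM on the bile duct side and 1.78 FPKM on the pancreatic side. The log2 difference of Gata5 between the organoid groups was 1.46 (SE 0.69, limma adjusted p = 1.00). Gata5 was singled out after its values were seen.

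**Figure D3:**
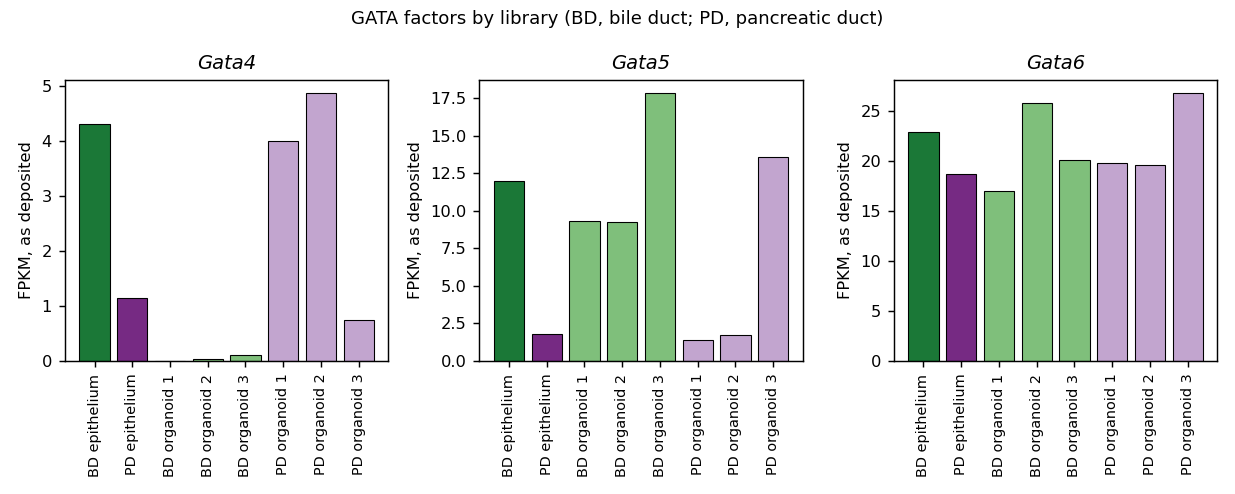
FPKM of Gata4, Gata5 and Gata6 in each library, as deposited, with bars starting at 0 and a separate scale for each gene. Gata4 is high and Gata5 low in pancreatic duct organoids 1 and 2, the reverse holds in the other 4 organoids, and Gata6 stays between 17.0 and 26.8 FPKM throughout.

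The second question was whether bile duct and pancreatic duct organoids differ in these factors. None of the 7 factors that passed the filter was called by limma at an adjusted p under 0.05, and the calls came to 0.0% of the 12106 genes tested. At an unadjusted p under 0.05, limma gave 1 of the 7, where 2.56% of all genes did, and limma-voom on recovered reads gave 2. That 1 was Foxa1, lower in bile duct organoids by a log2 difference of -0.69 (SE 0.28, unadjusted p = 0.0486, limma adjusted p = 1.00). Without bile duct organoid 2 it was -0.39 (limma unadjusted p = 0.0851). With median of ratios scaling, or with 0.1 FPKM added, limma gave 0 of the 7 at that level. Leaving out bile duct organoid 1 gave 3, namely Foxa1, Onecut1 and Sox9, beside 1039 of 11924 genes. Foxa1 and Onecut1 were, with Gata4, the 3 factors whose organoid groups did not overlap, against 6.44% of genes with at least 1 FPKM in an organoid and 6.37% of those with it in 3. Onecut1 was higher in bile duct organoids by 0.45 (SE 0.20, limma adjusted p = 1.00), and by 0.28 without bile duct organoid 2.

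Within a pair the ratio of the partners does not depend on library scaling. The log2 ratio of Foxa1 to Foxa2, with 0.1 FPKM added to each, was -4.43 ± 0.99 in the bile cultures and -3.39 ± 0.16 in the pancreatic cultures (SD, n = 3 each, exact two-sided permutation p = 0.1, the smallest possible, adjusted p = 0.15 over 3 ratios). Bile duct organoid 2 widened this gap of -1.04, which was -0.47 without it. For Gata4 to Gata6 the ratios were -7.18 ± 0.53 and -3.08 ± 1.65 (SD, n = 3 each, exact permutation p = 0.1, adjusted p = 0.15). For Onecut1 to Onecut2 they were -4.04 ± 0.35 and -4.47 ± 0.52 (SD, n = 3 each, exact permutation p = 0.4, adjusted p = 0.4). Leaving out an organoid moved this last gap to between 0.15, without pancreatic duct organoid 3, and 0.66, without pancreatic duct organoid 2. The sizes depend on the value added, most of all for Gata4, whose bile duct levels were at or near 0. With 1 FPKM added the differences were -0.69 for Foxa1 to Foxa2, -1.75 for Gata4 to Gata6, in place of -4.10, and 0.23 for Onecut1 to Onecut2, in place of 0.43.

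The third comparison set bile duct against pancreatic duct epithelium, with 1 library each and no replicate check. Hnf4a, Onecut2, Foxa2, Gata4 and Sox9 were at least 2-fold higher in bile duct epithelium on the log2(scaled FPKM + 1) scale. These 5 of 8 factors compare with 13.3% of 15092 genes at least 2-fold apart, 8.79% higher in bile duct and 4.49% lower. Hnf4a differed most, 8.60-fold in FPKM (95% counting interval 7.53 to 9.84). Onecut2 was 4.31-fold higher, Gata4 3.77-fold (2.88 to 4.95), Foxa2 3.76-fold (2.90 to 4.87) and Sox9 2.2-fold (1.96 to 2.48). Gata6 and Onecut1 were closer, at ratios of 1.22 and 1.12 (0.821 to 1.52 for Onecut1). Foxa1 was the factor with the lower value in bile duct, at a ratio of 0.674 (0.460 to 0.988). These intervals cover counting error only, and none is given for Onecut2 and Gata6, whose read numbers are approximate. Per unit of 6 epithelial genes, described next, 0 factors were 2-fold higher in bile duct and 3 were lower, namely Onecut1, Foxa1 and Gata6, where 91.3% of all genes were 2-fold apart, 13179 of 15092 as lower.

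Other cell types and epithelial genes moved with that difference. The geometric mean of 6 genes common to epithelia (Epcam, Cdh1, Krt8, Krt18, Cldn7 and Esrp1) was 135 FPKM in bile duct and 31.4 FPKM in pancreatic duct epithelium. Of 12 intestinal markers, 11 were at least 2-fold higher in bile duct epithelium in FPKM, and their sum was 493 against 49.6 FPKM. In organoids that sum was 97.4 to 244 FPKM, 2 of the 12 were at 0 in all of them and 9 under 1 FPKM. The other 3 made up most of it, with Vil1 at 51.0 to 106 FPKM against 60.3 FPKM in bile duct epithelium, Cdh17 at 41.8 to 116 against 51.7 FPKM, and Cdx2. Of 12 hepatocyte markers, 9 were at least 2-fold higher in bile duct epithelium, the other 3 being higher on the pancreatic side (Serpina1a, Serpina1b and Ahsg), with sums of 406 and 116 FPKM and of 8.77 to 146 FPKM in organoids. Of 10 gastric markers, 7 were at least 2-fold higher in bile duct epithelium, with sums of 2104 and 265 FPKM and of 2.93 to 15.7 FPKM in organoids. The 15 acinar markers were the other way round, 6 of them at least 2-fold higher in pancreatic duct epithelium. The part of these cells in the difference of Hnf4a, Foxa2 or Gata4 was not tested.

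The change from epithelium to organoid was then taken organ by organ, with the same epithelium libraries as above. In bile duct, 5 of 8 factors were at least 2-fold apart and had each of 3 organoids beyond the epithelium in that direction. Of these, 4 were higher and 1 lower, against 39.6% of 15227 genes, 15.3% higher and 24.3% lower. The lower one was Gata4, with a log2 difference of -2.41 ± 0.07 (SD, n = 3). With 0.1 in place of 1 FPKM added, that difference of Gata4 was -5.05 ± 0.52, so its size and spread depend on the value added. In pancreatic duct, 4 of 8 were, all higher, against 41.1% of 14984 genes, 17.8% higher and 23.4% lower. Without pancreatic duct organoid 3, Gata4 made them 5. Per unit of the 6 epithelial genes, 0 were higher and 4 lower in pancreatic duct (Onecut1, Foxa1, Gata4 and Gata6), and 0 higher and 2 lower in bile duct (Gata4 and Gata6). Of all genes, 94.4% were called by that scaling in pancreatic duct (13996 of 14984 as lower) and 65.5% in bile duct (9652 of 15227 as lower). With the scaling above, the higher ones were Hnf4a, Sox9, Onecut2 and Foxa2 in both organs. For Hnf4a the log2 difference was 1.47 ± 0.18 in bile duct and 4.07 ± 0.33 in pancreatic duct (SD, n = 3 each). For Foxa2 it was 1.78 ± 0.12 and 3.29 ± 0.09, for Sox9 1.56 ± 0.43 and 3.00 ± 0.33, and for Onecut2 1.03 ± 0.68 and 2.66 ± 0.39. In bile duct Onecut2 was under the 2-fold mark without organoid 2, at 0.72, without organoid 3, at 0.99, and with median of ratios scaling, at 0.84.

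A limma fit with an organ by culture term, added after the values were seen, compared these changes between the organs. Each epithelium enters as 1 library and adds no spread, so the test rests on the spread of organoids and cannot tell an organ from its 1 epithelium library. It called Foxa2 and Hnf4a, 2 of 8 factors, both lower, against 7.41% of all genes and 3.31% lower. The bile duct change of Foxa2 minus the pancreatic duct change was -1.51 on the log2 scale (SE 0.18, limma adjusted p = 0.00728). For Hnf4a the difference was -2.60 (SE 0.40, limma adjusted p = 0.0202). Per unit of the 6 epithelial genes neither passed, at 0.13 for Foxa2 and -0.87 for Hnf4a (limma adjusted p = 0.853 and 0.292). Hnf4a lost its call without bile duct organoid 1, bile duct organoid 3 or pancreatic duct organoid 3, with limma adjusted p-values of 0.0583, 0.0725 and 0.0563. For Gata4 the difference was -3.13 (SE 1.00, limma adjusted p = 0.211). With 0.1 FPKM added it was -5.98 and with limma-voom -7.91 (limma adjusted p = 0.192 and 0.465), and without pancreatic duct organoid 3 it was -3.67 (limma adjusted p = 0.00193). The single epithelium libraries themselves differed by 1.51 for Foxa2 and 2.76 for Hnf4a, bile duct minus pancreatic duct. Limma-voom on recovered reads called neither gene, with an adjusted p = 0.258 for Foxa2 and 0.182 for Hnf4a, and called 3 of 14898 genes in all.

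**Figure D4:**
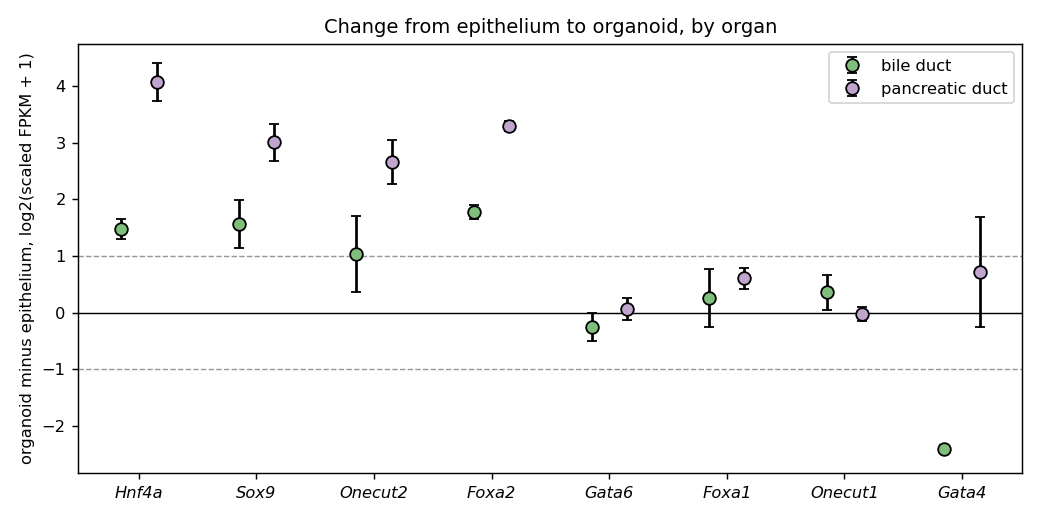
Change from epithelium to organoid for each factor as organoid minus epithelium on the log2(scaled FPKM + 1) scale. Points are means of 3 organoids against the 1 epithelium of their organ, bars are the SD over organoids and dashed lines mark a 2-fold change. Hnf4a, Sox9, Onecut2 and Foxa2 lie above 1 in both organs, and Gata4 lies at -2.41 in bile duct and at 0.72 in pancreatic duct.

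The geometric mean of the 6 epithelial genes was 338 to 590 FPKM in organoids, against 135 and 31.4 FPKM in the epithelia, bile duct first. More epithelial cells and more RNA of these genes per cell cannot be told apart here. The factors were therefore also expressed per unit of these genes. Scaled so, the median of all genes moved from 0.12 to -2.19 in the shared organoid change, and the fit called 85.1% of all genes, 84.2% as lower. Of the 8 factors 4 were called, all lower. Hnf4a, Sox9, Foxa2 and Onecut2 no longer passed the test, with log2 differences of 0.28, -0.26, 0.17 and -0.64 and limma adjusted p-values of 0.641, 0.673, 0.784 and 0.294. Gata6, Gata4, Onecut1 and Foxa1 fell in organoids by this measure, with differences of -2.67, -2.66, -1.73 and -1.45. Onecut1 and Foxa1 fell by less than the median gene. The limma adjusted p-values of the 4 were 1.54e-05, 7.48e-07, 0.00154 and 0.00794. In this fit limma pooled the spread over genes, with SEs of 0.51 to 0.59 for the 8 factors. Its p-values and calls therefore do not measure the spread of single genes between cultures and may be far too small. Per 1000 units of the reference, Foxa2 had 57.7 in the bile duct tissue, 66.0 in the pancreatic duct tissue and 51.6 to 104 in cultures. Gata6 had 170 and 597 in the epithelia and 28.9 to 79.4 in organoids, with no overlap. Sox9 had 109 and 212, and 96.7 to 265 in organoids, the highest again in pancreatic duct organoid 3. Gata6 transcripts can also come from non-epithelial cells, and the part of those cells was not tested.

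**Figure D5:**
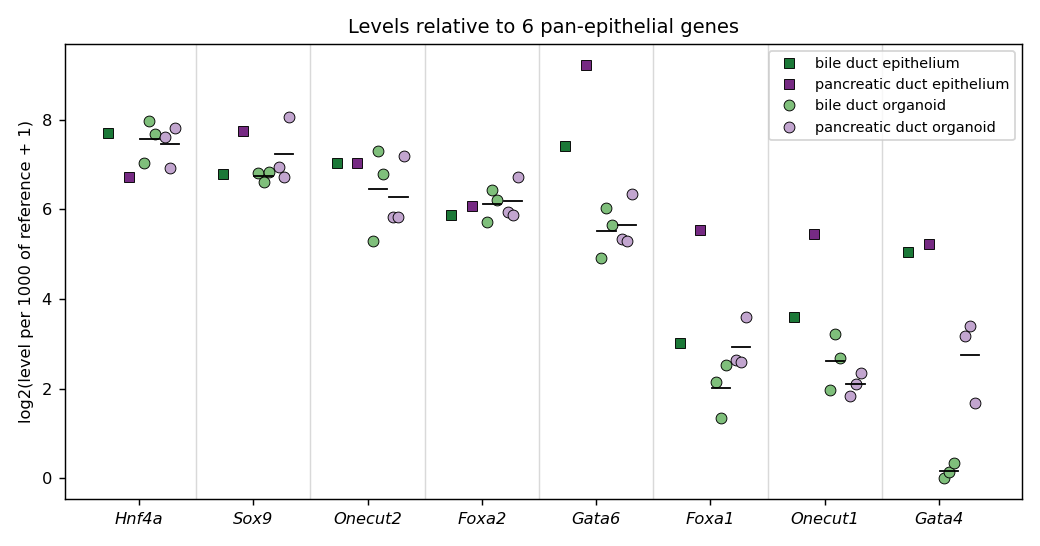
Level of each factor per 1000 units of the geometric mean of 6 epithelial genes, as log2(value + 1), in each library. Squares are epithelia, circles organoids and black bars organoid means. Foxa2, Hnf4a, Sox9, Onecut2 and Foxa1 overlap between epithelia and organoids, whereas all 6 organoids lie below both epithelia for Gata6, Onecut1 and Gata4.

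Relatives of the 8 factors and other regulators of liver and pancreas were described from gene lists. Their differences are on the trimmed mean scaling and were not recomputed per unit of the epithelial genes, a scaling that moves the median of all genes as given above. Of 9 paralogs, 5 were tested in the shared organoid change, of which 2 rose and 2 fell. The shares over all genes tested were 32.7% and 26.6%. Foxa3, the third FOXA gene, rose by 1.99 (SE 0.22, limma adjusted p = 0.000261) and Onecut3 by 1.97 (SE 0.49, limma adjusted p = 0.0114). Gata2, a factor of blood and endothelial cells, and Sox10, a factor of Schwann cells, changed by -3.76 and -3.72 (limma adjusted p = 3.27e-05 and 7.54e-07). Hnf4g, the paralog of Hnf4a known from gut, had 6.97 and 0.664 FPKM in the epithelia, bile duct first, and at most 0.190 FPKM in an organoid. Foxa3 had 13.0, 19.4 and 16.3 FPKM in the bile cultures, against 8.29, 10.8 and 9.07 FPKM in the pancreatic cultures. These groups did not overlap, and limma gave an unadjusted p of 0.00412 and an adjusted p = 1.00.

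Of 20 other liver, duct and pancreas transcription factors, 17 were tested in the shared organoid change, and 9 rose and 4 fell. Over all genes tested 32.7% rose and 26.6% fell. The list's median was 0.92, against 0.12 over all genes tested. Among those that rose was Pdx1, a master gene of pancreas and duodenum, by 1.66 (SE 0.44, limma adjusted p = 0.0144), from 10.2 and 1.86 FPKM in the epithelia to 12.2 to 27.4 FPKM in organoids. Cdx2, an intestinal factor, rose by 2.09 (SE 0.74, limma adjusted p = 0.0447) from 4.84 and 0.114 FPKM in the epithelia to 4.45 to 20.7 FPKM in organoids. The bile duct epithelium was thus above the lowest organoid for Cdx2. Prox1, a factor of hepatoblasts and lymphatic vessels, fell, with a difference of -1.93 (SE 0.45, limma adjusted p = 0.00893). Sox17 fell too, with -1.81 (SE 0.64, limma adjusted p = 0.0440), and Tbx3 and Nr5a2 were the other 2. No gene of this list was called between the organoid groups.

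Genes that these factors are known to drive did not move as a block. Of 9 duct genes tied to SOX9, ONECUT1 and related regulators, 4 rose and 0 fell in the shared organoid change, with a median of 1.08. Those 4 were Krt7, Krt19, Epcam and Bicc1, and Krt7 rose by 3.67 (SE 0.53, limma adjusted p = 0.000858). Epcam is also among the 6 epithelial reference genes. Over all genes tested, 32.7% rose and 26.6% fell. Cftr, the chloride channel of ducts, and Pkhd1, a cilium gene, did not pass, with differences of 0.14 and -0.10. Of 12 textbook targets of HNF4A and FOXA, 6 were tested, and 0 rose and 3 fell, with a median of -2.62. The 3 that fell were Alb, Apoa1 and Fabp1, with log2 differences of -3.16, -4.64 and -5.24 (limma adjusted p = 0.00343, 0.00222 and 0.00141). Alb and Apoa1 are also on the hepatocyte list, whose sums were 406 and 116 FPKM in the epithelia. Fabp1 had 165 and 6.79 FPKM in the epithelia and at most 0.0905 FPKM in an organoid, and of 7 intestinal markers tested 4 fell and 3 rose. The part of hepatocytes and gut cells in these falls was not tested. Ttr had 5.88 to 141 FPKM in organoids, against 157 and 69.4 FPKM in the epithelia. Of the cofactors, Nr0b2 and Ppargc1a, which modulate HNF4A, fell, with differences of -1.23 and -1.14 (limma adjusted p = 5.37e-05 and 0.00552). Zfpm1 and Zfpm2, partners of GATA factors, did not pass.

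For each factor the 3 genes with the nearest profile were found by the root mean square distance between profiles of log2(scaled FPKM + 1), each centred on its own mean over the 8 libraries, among 13740 other genes. Libraries share depth and cell mixture, so this describes likeness only. Foxa2 ran closest to Cgn, a tight junction gene, at 0.11, and to Spint2 and Esrp1, at 0.15 and 0.16. Hnf4a was nearest to Dnajc22, Pls1 and Mboat1 (0.18, 0.22 and 0.24), and Onecut2 to Gsr, Acnat1 and Pdx1 (0.19, 0.24 and 0.26). For Sox9 the nearest were Sh3bgrl2, Rnf43 and Ehf, at 0.26, 0.29 and 0.29. Gata6 had Pccb, Pcgf1 and Zfp935 (0.05, 0.10 and 0.10), Onecut1 had Scly, Tex2 and Dgcr6 (0.12, 0.14 and 0.14) and Foxa1 had Zfp462, Ccdc112 and Snx12 (0.17, 0.24 and 0.25).

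Gata4 had the most distant neighbours, Rrp36, Apobec3 and Rrp8, at 0.35, 0.41 and 0.49. Rrp36 and Rrp8 act in ribosome production and Apobec3 is an antiviral enzyme. Among the 6 organoids, all 3 were highest in pancreatic duct organoids 1 and 2, as Gata4 was. Rrp36 had 27.6 and 23.5 FPKM in those cultures, 4.66 FPKM in pancreatic duct organoid 3 and 4.04, 4.10 and 4.64 FPKM in the bile cultures. Apobec3 had 15.6 and 17.7 FPKM there, 4.64 FPKM in pancreatic duct organoid 3 and 3.43 to 4.90 FPKM in bile duct organoids. Their epithelial values, 13.8 and 10.2 FPKM for Rrp36 and 10.1 and 6.67 FPKM for Apobec3, fell between these levels. Rrp8 had 5.26 and 5.96 FPKM in the epithelia, 8.14 and 5.54 FPKM in pancreatic duct organoids 1 and 2 and 0.742 to 1.28 FPKM in the other 4 organoids.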

How the data were processed

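RNA was sequenced from 8 mouse libraries after poly-T bead selection, per the labels' protocols. The submitters' processing notes name Bowtie2 2.2.3, HISAT2 2.1.0, TopHat2 and HTSeq 0.6.0, without roles. Genome build, filters and strand use are not given in the sources used here. The deposited table gives FPKM, computed by the authors, with 1 column per library. No header names the unit. Coordinates of 6 of the 8 factors equal those of GENCODE M21 (GRCm38), the exceptions being Onecut2 and Gata6. Each value times merged exon length is a whole multiple of a library step for 89% of genes in all libraries (tolerance 0.05 reads), which gives the read numbers quoted.

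The factors and gene lists were chosen with earlier results of these data known. Each was named by rule: the 8 factors, list genes where a list is discussed, and the 3 nearest profiles of each factor. The design provided for counts or FPKM. FPKM were scaled by a trimmed mean of log ratios (30% of ratios and 5% of levels trimmed on each side), over 6 organoids or 8 libraries. Genes with at least 1 FPKM in 3 organoids, or in 2 of 8 libraries, were kept. limma 3.58.1 (R 4.3.3) tested log2(FPKM + 1), which understates changes of low genes, with a Benjamini-Hochberg threshold of 0.05, and was tested on simulated data. Other computation used Python 3.11.15. Organoid libraries were compared for duplicates (chi-square per degree of freedom at least 20.5). Some genes of the lists and 1 motif are not reported here.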

Additional observations from a re-analysis of the deposited data

Results flagged for a closer look

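For 2 factors limma's test of the organ by culture term, added after the values were seen, was passed, in a design where each epithelium is 1 library that adds no spread. The bile duct change minus the pancreatic duct change was -2.60 for Hnf4a and -1.51 for Foxa2 on the log2 scale. All 3 organoids of each organ were above their epithelium for both genes. Limma-voom called neither, and Hnf4a lost its call without bile duct organoid 1, bile duct organoid 3 or pancreatic duct organoid 3 (limma adjusted p = 0.0583, 0.0725 and 0.0563). The 6 epithelial reference genes differed between the epithelia in the same direction, at a geometric mean of 135 against 31.4 FPKM. Per unit of those genes the differences were -0.87 (limma adjusted p = 0.292) for Hnf4a and 0.13 (limma adjusted p = 0.853) for Foxa2.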

How the results depend on the processing

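Alternatives covered the scaling, pseudocount, filter, replicate block, limma-voom, the organ term and leaving out each library. Per unit of the 6 epithelial genes calls turned over. Between the epithelia 3 factors, all lower, took the place of 5 higher, with 91.3% of all genes called. Between bile duct organoid and epithelium 2, both lower, took the place of 4 higher and 1 lower (65.5% of genes), and in pancreatic duct 4 lower took the place of 4 higher (94.4%). The organ difference in the change was called for 1 factor, Onecut1, in place of 2, beside 10442 of 14919 genes, and by limma-voom for 0. Leaving out an organoid gave 1 to 2 calls of that difference, with bile duct organoids 1 and 3 giving 1. Per unit of the epithelial genes many signs turned. The shared organoid change became -0.26 for Sox9, -1.73 for Onecut1, -0.64 for Onecut2 and -1.45 for Foxa1. The epithelial difference became -0.94 for Sox9, -0.18 for Foxa2, -0.17 for Gata4, -1.66 for Onecut1 and -1.79 for Gata6. The bile duct change became -0.029 for Sox9, -0.55 for Onecut2, -0.15 for Hnf4a, -0.72 for Onecut1 and -0.67 for Foxa1. The pancreatic duct change became -0.49 for Sox9, -0.72 for Onecut2, -2.24 for Foxa1, -2.06 for Gata4 and -3.50 for Gata6. The organ difference in the change became 0.46 for Sox9, 0.17 for Onecut2, 1.57 for Foxa1, 0.13 for Foxa2 and 1.67 for Gata6. Beyond the altered reference itself, the cause was not tested.

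Under the other alternatives, turned signs belonged to differences that passed no test. Between organoid groups Foxa2 was 0.000595 with FPKM as deposited and 0.00209 with median of ratios scaling, and in the shared change Gata6 was 0.035 with FPKM as deposited. Leaving out a library gave -0.090 to 0.58 for Onecut2, negative without bile duct organoid 2. It gave -0.061 to 0.052 for Foxa2, positive without bile duct organoid 3 (0.052) or pancreatic duct organoid 3 (0.035). It gave -0.22 to 0.028 for Gata6, positive without bile duct organoid 1 (0.0086) or pancreatic duct organoid 3 (0.028). Without bile duct epithelium the shared change was -0.031 for Onecut1, 0.71 for Gata4 and 0.055 for Gata6. Over all genes, leaving out pancreatic duct organoid 3 raised the organoid comparison from 0 to 11 called, none of them one of the 8 factors. The replicate block left 0 factors called between organoid groups, and ratio differences of -1.04, 0.43 and -4.10 had exact sign-flip p of 0.25, 0.5 and 0.25. Same-numbered organoids did not consistently deviate together from their group means over genes, with correlations of -0.10, -0.44 and 0.48. Differently numbered cultures reached 0.65 (bile duct 1 with pancreatic duct 2) and 0.43 (bile duct 2 with pancreatic duct 3). Bile duct 3 with pancreatic duct 2 had -0.59, and bile duct 1 with pancreatic duct 3 had -0.57. The remaining pairs had 0.016 and 0.15. Deviations were thus shared across organs in part, for a reason not tested. At 3 cultures a group no exact test can pass 0.05, and genes near 1 FPKM rest on few reads.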
